A study of Mus musculus with 62 samples.

Results

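The gastrocnemius muscle of mice was compared 2 weeks after injection of cachectic melanoma cells and 2 weeks after mock injection. The comparison uses 10 of the 62 RNA libraries of the study, 5 from each of these groups, taken by their column names in the deposited expression table. All mice were female and were injected at 2 months of age. They received melanoma cells of a cachectic kind (CAC) or of a kind without cachexia (NCAC), or a mock injection (Con), and the calf muscle was taken after 2, 4, 6 or 8 weeks. The sources differ on the strain: the sample labels name C57BL/6J, the series design names NCI Ath/nude mice, and neither can be preferred here. The labels name neither the melanoma lines nor the site of injection. The comparison addresses what differs in muscle early after the injection, and the 5 NCAC libraries of the same week are given beside it. Values are in TPM, the share of a library's transcripts that come from a gene after correction for its length, and changes are log2 differences of TPM + 1 between group means with the standard error (SE) of limma. The group means compared come from the 10 libraries, while limma estimated the spread behind each SE and p from all 62. A gene is called when its p, adjusted by Benjamini-Hochberg over 12364 genes, is under 0.05.

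Cachexia is a wasting of muscle and fat seen with some tumours. Cytokines of the interleukin-6 family bind receptors that contain gp130, which activates Janus kinases and the transcription factor STAT3, and STAT3 then raises the transcription of its own gene and of the feedback inhibitor SOCS3. In wasting muscle, protein is broken down through the ubiquitin ligases MuRF1 and atrogin-1 and through autophagy, which are under the control of FoxO factors and are also raised by glucocorticoids.

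At 2 weeks, 35 of 12364 genes (0.283%) were called between CAC and Con. Of these, 33 (0.267%) rose and 2 (0.0162%) fell in CAC. The genes that rose include Stat3 and Socs3 of interleukin-6 signalling, complement C4b, the muscle membrane repair gene Trim72 and the retinoic acid enzyme gene Aldh1a2, and both that fell encode subunits of mitochondrial respiratory complexes. Rises ran from 0.37 to 2.29 on the log2 scale with a median of 0.72. The lowest value in CAC lay above the highest in Con for 29 of the 33, against 5.01% of all genes tested. For the 2 that fell the groups did not overlap either, against 0.542%. The 35 genes were chosen on these same values, so this lack of overlap largely follows from the choice and adds no support. Without adjustment, p was under 0.05 with a higher mean in CAC for 1371 genes (11.1%) and with a lower mean for 276 (2.23%). With all libraries set to 1 median ratio (rescaling), 24 genes rose and 6 fell. The median change over all genes was 0.09 before and 0.00 after rescaling. The 35 include a clone name and a predicted gene model, which are not described.

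The 5 CAC libraries were unequal. Replicate 4 was the highest of them for 24 of the 33 genes that rose, replicate 3 for 6 and replicate 2 for 3, while replicate 1 was the lowest for 22 and replicate 5 for 7. Over all 12364 genes tested, replicate 4 was the highest for 4403, replicate 5 for 4452, replicate 3 for 1284 and replicate 2 for 1195, while replicate 1 was the lowest for 3711 and replicate 5 for 1017. The number of calls moved with single libraries: leaving out CAC replicates 1, 3, 4 and 5 in turn gave 114, 7, 10 and 70 calls, and leaving out Con replicates 1 and 3 gave 16 and 18. Stat3, Trim72, Atp9a, Tmem176b, Bmper, Limch1 and Socs3 were called with each of the 10 libraries left out in turn, and the other 28 lost the call without CAC replicate 3 (adjusted p from 0.0607 to 0.231, limma). All 35 kept their direction with each library left out. A fit of the 10 libraries alone, which does not use the spread of the other groups, called 2 genes, Stat3 and Trim72.

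The transcripts of STAT3 and of its feedback inhibitor were higher in CAC. Stat3 (chromosome 11 from 100885098 to 100939540, build GRCm38) was at 23.1, 26.6, 39.8, 39.3 and 24.4 TPM in CAC replicates 1 to 5 and at 10.9, 10.7, 11.6, 13.3 and 12.7 TPM in Con replicates 1 to 5. Every CAC library lay above every Con library, and the 5 NCAC libraries, at 10.1 to 11.9 TPM, lay with Con. Means of 5 libraries were 30.6 ± 8.22 TPM for CAC against 11.8 ± 1.12 TPM for Con (SD), and limma gave a rise of 1.27 with an SE of 0.129 (adjusted p = 1.66e-09). It was the gene of lowest p in the comparison. Socs3 (chromosome 11 from 117966079 to 117970047), which encodes the inhibitor that binds gp130 and the Janus kinases, was at 3.55, 21.5, 46.2, 66.4 and 6.09 TPM in CAC and at 4.003, 4.49, 1.55, 2.64 and 2.30 TPM in Con. CAC replicate 1 lay within the range of Con, replicate 5 just above it, and the other 3 well above it, so the groups overlapped. The log2 rise was 2.29 (SE 0.417, adjusted p = 0.00207), and the NCAC libraries were at 1.38 to 4.99 TPM. Sbno2, which encodes a transcriptional regulator induced by interleukin-6 type cytokines, was at 4.21, 5.83, 14.2, 17.7 and 6.75 TPM in CAC and at 3.56, 3.69, 4.02, 3.94 and 3.80 TPM in Con. The groups did not overlap, replicates 3 and 4 were the high ones, and the rise was 0.99 (SE 0.241, adjusted p = 0.0492).

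Among 16 genes on the list of STAT3 factors and feedback, Stat3 and Socs3 rose and 14 were not called. The median change of the list was 0.19, against 0.09 over all genes tested. Bcl3, a nuclear partner of NF-kB proteins that belongs to the same list, was at 1.17, 1.71, 4.08, 5.67 and 1.83 TPM in CAC and at 0.693 to 1.46 TPM in Con (log2 difference 0.86, adjusted p = 0.0989). The ligands and receptors of the interleukin-6 family gave 0 calls among 8 tested genes. An unadjusted p under 0.05 by limma was found for 2, both higher in CAC, against 11.1% of all genes. The 2 were Osmr, the oncostatin M receptor, at 1.55, 2.51, 3.46, 4.16 and 1.99 TPM in CAC and 1.004 to 1.42 TPM in Con (difference 0.73, adjusted p = 0.0776), and Il6st, which encodes gp130, at 36.4 to 47.6 and 31.2 to 33.6 TPM (difference 0.33, adjusted p = 0.223). In both of these genes every CAC library was above every Con library. Il6ra, which encodes the receptor chain that binds interleukin-6 itself, was at 1.58 to 2.99 TPM in CAC and 1.15 to 2.58 TPM in Con, a difference of 0.34 with a 95% interval of -0.59 to 1.27.

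**Figure D1:**
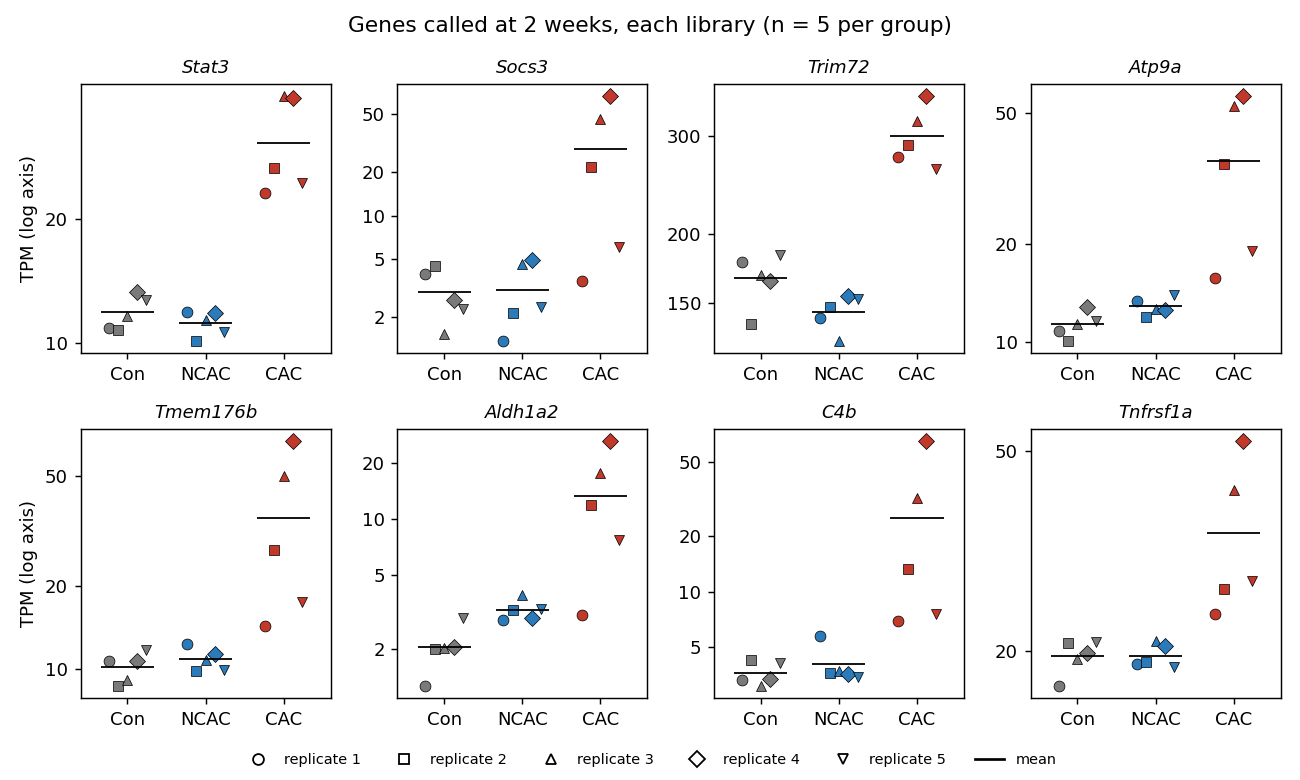
TPM of 8 called genes (log axis) in each library at 2 weeks, with Con, NCAC and CAC side by side, 1 symbol per replicate number and a line at the mean of 5 libraries. The CAC points lie above the Con points except for Socs3, where CAC replicate 1 lies among them, and CAC replicates 3 and 4 are the upper 2 points of CAC in each panel.

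STAT proteins bind the palindrome TTCNNNGAA, so the promoter windows of the called genes were searched for it on both strands. RefSeq windows from 250 bases before to 50 bases after a start site (GRCm38.p6) were at hand for 25 of the 35 called genes. The motif occurred in 6 of the 25 (24%) and in 9.55% of the 27025 genes that have a window. A gene can have several windows, and a match is a description of the letters, not a site of binding. A form with 1 more base between TTC and GAA, searched in the same way, occurred in 0 of the 25 and in 8.01% of all genes, and the full palindrome of the glucocorticoid receptor in 0 of the 25 and in 3 genes in all. The stretches around the matches are shown for the 5 genes whose match lies before the start site, 5′ to 3′ on the strand of the gene, with the matches in capitals. The match of Socs3 begins 154 bases before its start site, that of Tnfrsf1a 244, those of Casp12 102 and 36, and that of Dnajc13 134. Sbno2 has matches 24 and 26 bases before 2 alternative start sites. Ssbp4 has its match 8 bases after the start, and it is not shown.
Socs3, chr11:117969482-117969550 on the minus strand: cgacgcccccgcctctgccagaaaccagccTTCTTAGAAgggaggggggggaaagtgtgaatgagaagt
Sbno2, chr10:80101188-80101241 on the minus strand: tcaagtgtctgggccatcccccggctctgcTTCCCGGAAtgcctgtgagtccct
Sbno2, chr10:80102703-80102758 on the minus strand: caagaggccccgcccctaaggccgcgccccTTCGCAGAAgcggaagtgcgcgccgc
Tnfrsf1a, chr6:125349473-125349517 on the plus strand: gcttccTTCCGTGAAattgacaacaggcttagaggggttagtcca
Casp12, chr9:5345344-5345475 on the plus strand: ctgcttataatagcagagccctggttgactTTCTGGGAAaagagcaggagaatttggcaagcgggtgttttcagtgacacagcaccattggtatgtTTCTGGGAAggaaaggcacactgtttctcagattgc
Dnajc13, chr9:104263026-104263094 on the minus strand: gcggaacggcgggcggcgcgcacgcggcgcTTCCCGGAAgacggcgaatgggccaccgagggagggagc
The Stat3 windows held none of the 3 motifs.

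The complement genes C4b and Serping1 and the receptor gene Tnfrsf1a rose. C4b, a complement component that tags surfaces for removal, was at 6.95, 13.3, 31.8, 64.8 and 7.59 TPM in CAC and at 3.35, 4.27, 3.08, 3.36 and 4.11 TPM in Con. All CAC libraries were above all Con libraries, with a 6.85-fold ratio of the means, and replicates 3 and 4 carried most of that mean. The log2 rise was 2.00 (SE 0.423, adjusted p = 0.0123, limma). Serping1, the inhibitor of the first complement component, was at 65.03, 85.2, 136, 256 and 79.7 TPM in CAC and at 44.4, 60.7, 52.6, 42.9 and 68.7 TPM in Con. Its groups overlapped at CAC replicate 1 and Con replicate 5, and the rise was 1.03 (SE 0.25, adjusted p = 0.0492). These 2 were the called genes among 19 tested complement genes, of which 13 had an unadjusted p under 0.05 with a higher mean in CAC, against 11.1% of all genes. The median change of the 19 was 0.69. With CAC replicate 4 left out, 9 had an unadjusted p under 0.05, 0 were called and the median was 0.39. The count of calls reached 7 with CAC replicate 1 left out and was 0 with CAC replicate 3 left out. Tnfrsf1a, the main receptor of tumour necrosis factor, was at 23.7, 26.5, 41.8, 52.3 and 27.5 TPM in CAC and at 16.99, 20.7, 19.2, 19.7 and 20.8 TPM in Con. The groups did not overlap, and the rise was 0.73 (SE 0.163, adjusted p = 0.0266). It was the called gene among 16 of the NF-kB and TNF list. Casp12, a caspase of the inflammatory family with overlapping groups, was at 2.49 to 6.59 TPM in CAC and 1.65 to 3.50 TPM in Con (rise 0.72, adjusted p = 0.049).

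Several secreted defence proteins had high transcript values in CAC replicates 3 and 4 without a call. Hp, the haemoglobin-binding acute phase protein haptoglobin, was at 9.23, 26.8, 166, 383 and 11.7 TPM in CAC and at 21.6, 5.36, 5.92, 7.99 and 7.29 TPM in Con (difference 2.32, adjusted p = 0.135). Replicates 3 and 4 stood far above all Con libraries and CAC replicates 1 and 5 lay among them. Lbp, which binds bacterial lipopolysaccharide, was at 5.16, 5.76, 16.1, 39.8 and 5.70 TPM in CAC and 3.10 to 5.09 TPM in Con (adjusted p = 0.0887). Ccl8, a chemokine that attracts monocytes, was at 2.84, 5.61, 68.5, 238 and 2.02 TPM in CAC and 0.387 to 4.07 TPM in Con (adjusted p = 0.109). Its 2 high libraries were again CAC replicates 3 and 4. Steap4, a metal reductase induced by inflammation, was at 20.8, 26.3, 41.9, 53.02 and 28.9 and 17.4 to 18.7 TPM, with every CAC library above Con (difference 0.80, adjusted p = 0.0632). Of 18 tested acute phase genes 0 were called. An unadjusted p under 0.05 by limma was found for 5, all higher in CAC, against 11.1% of all genes. The 13 chemokine genes gave 0 calls and 5 such p values, and the 22 interferon genes 0 calls and 1, against the same 11.1%. That 1 was Irf9, the DNA-binding part of the interferon-activated STAT complex, at 2.99 to 5.14 TPM in CAC and 1.63 to 2.71 TPM in Con (adjusted p = 0.0776).

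Markers of macrophages moved in the same libraries as these genes. Of 15 tested macrophage markers 0 were called. An unadjusted p under 0.05 with a higher mean in CAC was found for 14, against 11.1% of all genes. Their median change was 0.95. The summed TPM of the 16 listed markers ran from 163 to 813 in CAC, from 82.9 to 202 in Con and from 92.9 to 141 in NCAC, and no marker was at 0 throughout a group. C1qa, a complement chain made by macrophages, was at 32.9, 34.6, 65.2, 167 and 26.6 TPM in CAC and at 14.1, 20.9, 21.8, 11.1 and 39.2 TPM in Con. CAC replicate 4 stood apart, and CAC replicates 1, 2 and 5 were below Con replicate 5. With CAC replicate 4 left out, 7 of the 15 had an unadjusted p under 0.05 and the median was 0.60. Leaving out CAC replicate 1 gave 4 calls and leaving out CAC replicate 5 gave 2. Fibro-adipogenic progenitors, the connective tissue cells of muscle, had 5 of 10 markers at an unadjusted p under 0.05, all higher in CAC, against 11.1% of all genes, and 0 called, with summed TPM of 581 to 1312 in CAC and 407 to 706 in Con. Extracellular matrix genes had 10 of 22 at such a p, also all higher and against the same 11.1%, and 0 called, with 1 of 22 when CAC replicate 4 was left out and 17 when CAC replicate 2 was. Lox, which cross-links collagen, was at 5.58, 4.47, 15.6, 38.9 and 6.59 TPM in CAC and 2.99 to 6.47 TPM in Con. Markers of B and plasma cells went the other way. Of 8 listed, 2 passed the filter, the immunoglobulin genes Ighm and Igkc, and both had an unadjusted p under 0.05 with a lower mean in CAC, against 2.23% of all genes, while 0 were called. Ighm was at 71.4, 64.1, 43.6, 31.5 and 18.9 TPM in CAC and at 74.5, 83.6, 140.4, 56.6 and 109.6 TPM in Con (difference -1.08, adjusted p = 0.336, limma). CAC replicates 1 and 2 lay above the lowest Con library and the other 3 lay below all of Con. Ighm differed by -1.19 between CAC and NCAC and by 0.11 between NCAC and Con. Igkc differed by -1.53 between CAC and Con, by 0.09 between CAC and NCAC and by -1.62 between NCAC and Con. For Igkc, Con replicate 1 was at 30.5 TPM and the other Con libraries were at 1.07 to 5.10 TPM. The summed TPM of the 8 markers was 20.4 to 72.9 in CAC, 62.6 to 142 in Con and 64.1 to 149 in NCAC, and none was at 0 throughout a group. None of the 8 T cell markers passed the filter. Of 8 neutrophil markers 4 passed, and the 8 summed to 1.60 to 6.06 TPM in CAC and 1.08 to 7.00 TPM in Con. Of 9 melanocyte and melanoma markers 2 passed, and the 9 summed to 5.59 to 10.7 and 4.70 to 9.27 TPM. Within these lists, the neutrophil marker Ly6g and the melanocyte enzyme gene Tyr were at 0 in all CAC and Con libraries. Fewer cells of a type and less RNA per cell cannot be told apart in these bulk samples. The part of these cells in the changes of C4b, Serping1, Tnfrsf1a and the other called genes was not tested.

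**Figure D2:**
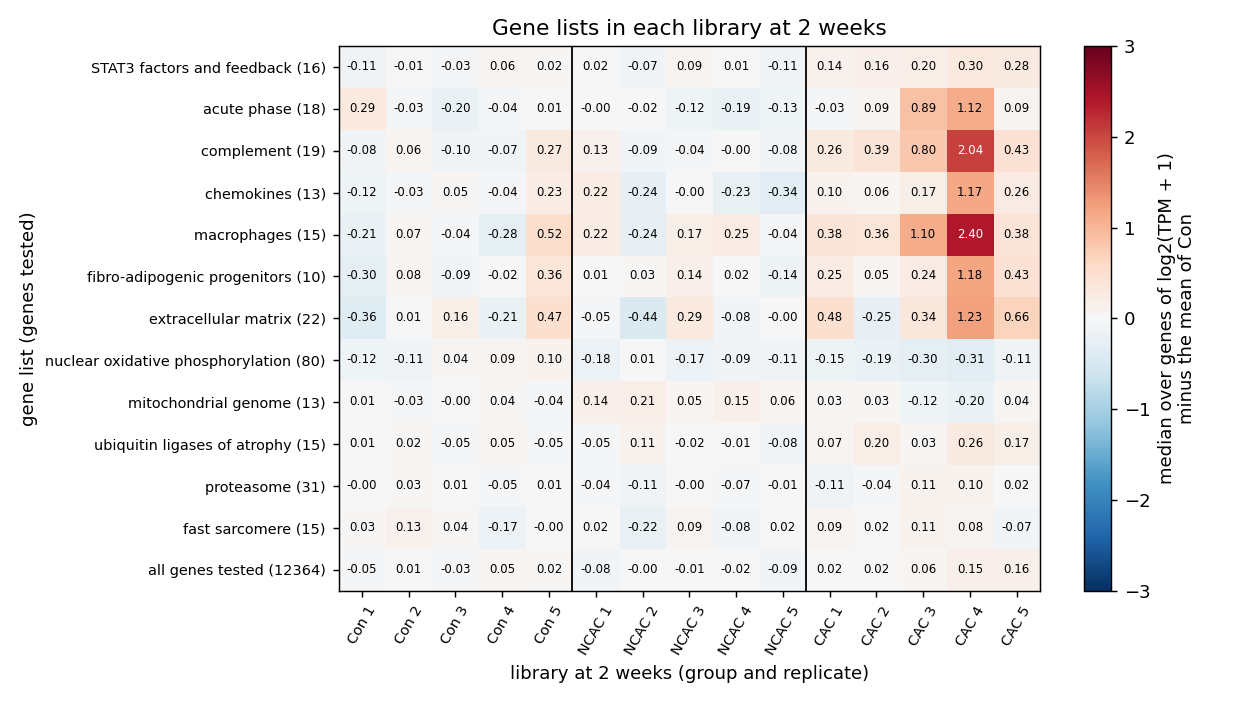
Median over the genes of a list of log2(TPM + 1) minus the mean of Con, for 13 rows of genes (number tested in brackets) in the 15 libraries at 2 weeks. CAC replicate 4 reaches 2.40 for macrophage markers and 2.04 for complement, CAC replicate 3 reaches 1.10 and 0.80, and the other CAC libraries stay at 0.43 or below in both rows.

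The other genes that rose are described singly, in an order set by what each is known to do and not by a test of a group. Trim72 (chromosome 7 from 128003949 to 128011033) encodes MG53, a muscle TRIM protein that takes part in sealing of membrane tears and acts as a ubiquitin ligase. It was at 275, 289, 319, 355 and 262 TPM in CAC and at 178, 138, 168, 164 and 183 TPM in Con. The libraries of CAC were close to each other and lay 1.81-fold above Con by the means, with NCAC at 128 to 154 TPM. The rise was 0.85 (SE 0.11, adjusted p = 1.91e-06, limma). Anxa6, a calcium-dependent membrane-binding annexin that also takes part in membrane repair, was at 153, 222, 252, 313 and 140.0 TPM in CAC and at 136, 139, 129, 117 and 136 TPM in Con (rise 0.65, adjusted p = 0.0421). CAC replicates 1 and 5 lay just above Con. Atp9a, a phospholipid flippase family gene, was at 15.8, 35.05, 52.7, 56.5 and 18.96 TPM in CAC and at 10.8, 10.1, 11.4, 12.8 and 11.6 TPM in Con. The groups did not overlap, and the rise was 1.41 (SE 0.222, adjusted p = 0.000193). Clec16a, Dnajc13 and Tm9sf2, whose proteins are found on endosomes, rose by 0.58, 0.37 and 0.38 (adjusted p = 0.0113, 0.0421 and 0.0421). Their groups did not overlap, with Tm9sf2 at 57.2 to 71.9 TPM in CAC and 46.3 to 49.6 TPM in Con. Limch1, an actin-binding gene, rose by 0.48 (adjusted p = 0.00207). Wbscr17, a gene of O-linked glycosylation, rose by 0.87, and Nup210, a nuclear pore membrane protein gene of muscle, by 0.51 (adjusted p = 0.00959 and 0.0123).

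Tmem176a and Tmem176b, neighbouring genes for membrane proteins of one family that are known from immune cells, rose together. Tmem176b was at 14.3, 26.9, 49.8, 66.7 and 17.5 TPM in CAC and at 10.7, 8.67, 9.14, 10.7 and 11.7 TPM in Con. Tmem176a was at 3.66, 7.56, 14.5, 22.2 and 4.96 and at 3.14, 3.06, 2.20, 3.23 and 3.31 TPM. In both genes all CAC libraries were above all Con libraries, with replicates 3 and 4 highest. The rises were 1.46 (SE 0.254, adjusted p = 0.00128) and 1.29 (SE 0.261, adjusted p = 0.0093). The genes lie head to head on chromosome 6, with RefSeq start sites 109 to 668 bases apart on opposite strands, and their annotated spans overlap (48833818 to 48841496 for Tmem176b and 48840919 to 48847071 for Tmem176a, GRCm38). Whether the counting used the strand is not given in the sources used here, so reads in the overlap could have been shared.

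Aldh1a2, Bmper, Slc39a1, Naprt and Mcu were also among the genes that rose. Aldh1a2, which makes retinoic acid from retinal, was at 3.07, 11.98, 17.6, 26.3 and 7.75 TPM in CAC and at 1.27, 2.02, 2.02, 2.05 and 2.95 TPM in Con. CAC replicate 1 was just above the highest Con library and the other 4 were well above it. The rise was 1.98 (SE 0.414, adjusted p = 0.0113, limma), and it was the called gene among 13 of retinoid metabolism. Bmper, a secreted protein that binds bone morphogenetic proteins, was at 2.50, 3.56, 5.51, 8.59 and 3.35 TPM in CAC and at 1.31, 1.70, 1.69, 1.67 and 2.21 TPM in Con (rise 0.98, adjusted p = 0.00207). Each CAC library was above Con. Slc39a1, a zinc importer, rose by 0.42 (adjusted p = 0.0492), and it was the called gene among 9 of zinc handling. Naprt, which makes NAD from nicotinic acid, rose by 0.59 (adjusted p = 0.0111), with overlapping groups. Mcu, the pore of the mitochondrial calcium uniporter, was at 12.4, 14.7, 17.2, 18.4 and 13.8 TPM in CAC and at 10.5, 10.4, 10.002, 10.7 and 10.2 TPM in Con. Its Con libraries were tightly grouped, all CAC libraries were above them, and the rise was 0.51 (adjusted p = 0.0231).

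Tead1, Qser1, Ets2, Plagl1, Ssbp4 and Nedd4l rose as well. Tead1, a DNA-binding partner of the Hippo pathway factors YAP and TAZ, was at 56.02, 62.1, 54.3, 54.8 and 61.4 TPM in CAC and at 34.2, 35.003, 42.3, 47.02 and 36.6 TPM in Con (rise 0.56, adjusted p = 0.043). Qser1, a chromatin protein gene, was at 28.99 to 33.8 TPM in CAC and 19.9 to 26.5 TPM in Con (rise 0.48, adjusted p = 0.00967). These 2 differed from most of the rises in that the values of the 5 CAC libraries were close together. Ets2, an ETS family transcription factor, rose by 0.59, Plagl1, an imprinted zinc finger factor, by 0.54, and Ssbp4, a single-stranded DNA-binding protein gene, by 0.64 (adjusted p = 0.049, 0.0231 and 0.0397). Plagl1 was low, at 1.06 to 2.16 TPM in CAC and 0.489 to 1.01 TPM in Con. Nedd4l, a ubiquitin ligase of membrane channels and transporters, was at 5.21, 7.39, 11.5, 8.14 and 5.03 TPM in CAC and at 3.98, 3.95, 4.07, 3.53 and 4.07 TPM in Con, and rose by 0.73 (adjusted p = 0.00626). The groups did not overlap for any of these 6 genes. At the threshold, Casp12, Sbno2, Serping1 and Slc39a1 were inside with adjusted p of 0.0490 to 0.0492. Just outside were Piezo1 (0.0549), Anapc13 (0.0579), Nog (0.0595), Lgmn and Dab2 (0.0624 each).

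Both genes that fell encode respiratory chain subunits. Cox7a2, a subunit of cytochrome c oxidase (complex IV), was at 382, 371, 314, 295 and 414 TPM in CAC and at 429.7, 425, 439, 504 and 487 TPM in Con, and fell by 0.37 (SE 0.0844, adjusted p = 0.031, limma). Ndufs4, a subunit of NADH dehydrogenase (complex I), was at 169, 158, 147, 148 and 153 TPM in CAC and at 177, 178, 194, 199 and 208 TPM in Con, and fell by 0.30 (SE 0.0713, adjusted p = 0.0485). The groups did not overlap for either gene, and NCAC overlapped both, at 378 to 435 TPM for Cox7a2 and 162 to 197 TPM for Ndufs4. These were the 2 called genes among 80 nuclear genes of the 5 complexes of oxidative phosphorylation, while 78 were not called. After rescaling 6 genes fell, 2 of them among the 80, and Ndufs4 was not called (adjusted p = 0.0506, limma). Ndufs4 also lost its call with mitochondrial genome transcripts removed and with a replicate block, while Cox7a2 kept its call in these 3 settings. Of the 80, 62 had an unadjusted p under 0.05 with a lower mean in CAC, against 2.23% of all genes. A change below 0 was found for 76, against 3340 of all 12364 genes. The count of unadjusted p under 0.05 ran from 46 without CAC replicate 4 to 65 without Con replicate 1 or 2. The groups did not overlap for 14 of the 80, against 0.542% of all genes. The median change was -0.22, and -0.32 after rescaling. By complex, it was -0.22 for 37 genes of complex I, -0.20 for 4 of complex II, -0.22 for 9 of complex III, -0.20 for 14 of complex IV and -0.18 for 16 of ATP synthase.

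**Figure D3:**
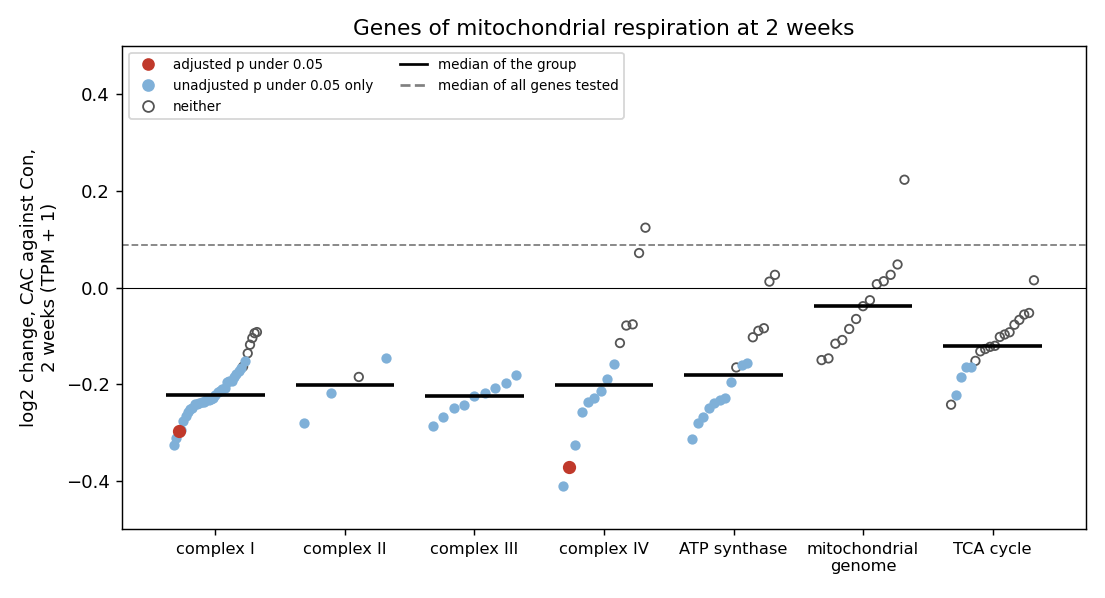
log2 change of CAC against Con at 2 weeks for each gene of respiration (points, ordered by change within a group), with solid lines at group medians and a dashed line at the median of all genes tested, 0.09. The medians of the 5 nuclear groups lie between -0.22 and -0.18, with Cox7a2 and Ndufs4 called, and genes of the mitochondrial genome lie on both sides of 0.

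Genes of single subunits show the size of these differences. Cox5a of complex IV was at 1156, 1122, 985, 852 and 1177 TPM in CAC and at 1169, 1168, 1424, 1397 and 1453 TPM in Con (difference -0.32, adjusted p = 0.0902). Atp5f1 of ATP synthase was at 289, 276, 254, 248 and 289.7 and at 296, 278, 326, 350.1 and 357 TPM (difference -0.24, adjusted p = 0.0632). Each of these 2 overlapped between the groups. Uqcr10 of complex III (-0.22), Sdhb of complex II (-0.28) and Ndufs5 of complex I (-0.26) gave log2 differences of the same order, with adjusted p of 0.138, 0.186 and 0.0902. Taken per library, the median of the 80 genes relative to the Con mean was -0.31 to -0.11 in CAC, -0.12 to 0.10 in Con and -0.18 to 0.01 in NCAC, so the libraries overlapped at this level. Against NCAC, the median difference of the 80 genes was -0.09, against 0.12 over all genes tested. Of the 80, 0 were called and 5 were lower at an unadjusted p under 0.05 by limma, against 1.04% of all genes. Between NCAC and Con, which shares the Con libraries, the median was -0.12, against -0.04 over all genes, and 0 of the 80 were called. All 80 were below 0, against 8202 of all 12364 genes. Of the 80, 16 were lower in NCAC at an unadjusted p under 0.05 by limma, against 3.15% of all genes. Genes encoded in mitochondrial DNA gave 0 calls among 13 and 0 at an unadjusted p under 0.05 by limma. They held 32.6% ± 2.12 of the TPM in CAC, 34.1% ± 0.820 in Con and 36.4% ± 1.33 in NCAC (SD, n = 5). The difference between CAC and Con did not pass an exact two-sided permutation test (p = 0.214; the smallest p that 5 against 5 allows is 0.00794). The 18 genes of the TCA cycle gave 0 calls, with 4 at an unadjusted p under 0.05, all lower in CAC, against 2.23% of all genes.

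The usual genes of muscle atrophy were not called at 2 weeks. Trim63, which encodes MuRF1, was at 119.7, 162, 169, 215 and 147 TPM in CAC and at 155, 147, 125, 109 and 121 TPM in Con, a difference of 0.29 with a 95% interval of -0.72 to 1.30. Fbxo32, which encodes atrogin-1, was at 62.3, 86.96, 60.1, 108 and 63.4 and at 89.5, 88.7, 57.3, 37.8 and 53.3 TPM, a difference of 0.25 (-0.73 to 1.23). The groups overlapped widely in these 2 genes. Both intervals reach above 1 on the log2 scale, so a rise of 1 in either gene is not excluded. Of 15 ubiquitin ligases of atrophy 0 were called and 2 had an unadjusted p under 0.05 by limma. The 31 proteasome genes gave 0 calls and 0 such p values, with a median change of 0.01, and the 18 FoxO factors and targets gave 0 and 1. Among 22 genes of autophagy and lysosomes 0 were called and 6 had an unadjusted p under 0.05, all higher in CAC. Over all genes tested, 11.1% had such a p with a higher mean in CAC and 2.23% with a lower mean. Foxo1 was at 4.52 to 7.23 TPM in CAC and 3.37 to 9.30 TPM in Con (difference 0.27, -0.53 to 1.07).

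Glucocorticoid and metallothionein genes were uneven between libraries. Mt2, a zinc-binding metallothionein, was at 17.9, 46.5, 184, 164 and 11.5 TPM in CAC and at 11.6, 7.21, 6.82, 9.70 and 16.5 TPM in Con, and Mt1 was at 35.3, 81.4, 221, 149 and 36.4 and at 24.5 to 45.8 TPM. CAC replicates 2, 3 and 4 were above all Con libraries in both genes, replicate 5 lay among them, and replicate 1 lay among them for Mt1 and just above for Mt2 (adjusted p = 0.247 and 0.348). Fkbp5, a glucocorticoid-induced chaperone gene, was at 7.54 to 16.1 TPM in CAC and 4.13 to 16.8 TPM in Con (difference 0.27, -1.07 to 1.61). Of 17 genes of the glucocorticoid response 0 were called, and 2 had an unadjusted p under 0.05, both higher in CAC, against 11.1% of all genes. Pdk4, a brake on pyruvate oxidation, was at 519, 216, 280.0, 135 and 198 TPM in CAC and at 37.4, 96.8, 224, 144 and 315 TPM in Con (adjusted p = 0.429). Chrna1, the acetylcholine receptor subunit that rises after denervation, was at 9.62, 11.8, 19.6, 30.3 and 11.8 TPM in CAC and 7.29 to 10.9 TPM in Con (adjusted p = 0.291). Igf1, a growth factor for muscle, was at 3.53, 3.28, 4.50, 7.58 and 5.14 and 1.67 to 3.05 TPM, with all CAC libraries above Con and an adjusted p of 0.117. The contractile genes stayed uncalled: 0 of 15 fast and 0 of 14 slow sarcomere genes, with 1 and 0 at an unadjusted p under 0.05. Myh4, the myosin of the fastest fibres, was at 10317 to 13181 TPM in CAC and 9898 to 12861 TPM in Con. The 10 muscle fibre markers summed to 110601 to 131974 TPM in CAC and 105023 to 119667 TPM in Con, so the defining markers of the labelled tissue were present.

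The genes called at 2 weeks were then tested in other mice at later weeks. Of the 35, 33 were called in the same direction between CAC and Con at 4 weeks, where 23% of all genes were called higher and 2.38% lower. At 6 weeks 32 were called the same way, against 51.8% higher and 5.41% lower, and at 8 weeks 32, against 65.3% and 5.55%. None was called in the opposite direction. Those not called were the clone name and the predicted gene model at all 3 later weeks and Qser1 at 6 and 8 weeks. The change of Qser1 was 0.48 at 2 weeks and 0.35, 0.09 and 0.08 at 4, 6 and 8 weeks. Over the 33 genes that rose at 2 weeks, the median change was 0.72 at 2 weeks and 1.00, 1.01 and 1.12 at 4, 6 and 8 weeks. Socs3 had changes of 4.02, 4.16 and 3.97 at these later weeks, Stat3 of 1.85, 1.89 and 1.88, C4b of 2.89, 3.37 and 3.41, Tmem176a of 1.85, 2.61 and 2.95 and Atp9a of 2.13, 2.41 and 2.78. For Stat3 the difference between the 8-week and the 2-week change was 0.61 (adjusted p = 0.012, limma) and for Socs3 1.68 (adjusted p = 0.0253). This difference of changes was called higher for 27.2% of all genes and lower for 1.27%. Aldh1a2 had changes of 2.21, 1.85 and 2.23 and Clec16a of 0.61, 0.50 and 0.57, close to those at 2 weeks (1.98 and 0.58). Cox7a2 had changes of -0.31, -0.32 and -0.19 and Ndufs4 of -0.25, -0.23 and -0.30. Of the 80 nuclear genes of oxidative phosphorylation, 46, 56 and 61 fell at 4, 6 and 8 weeks and 0, 6 and 7 rose.

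**Figure D4:**
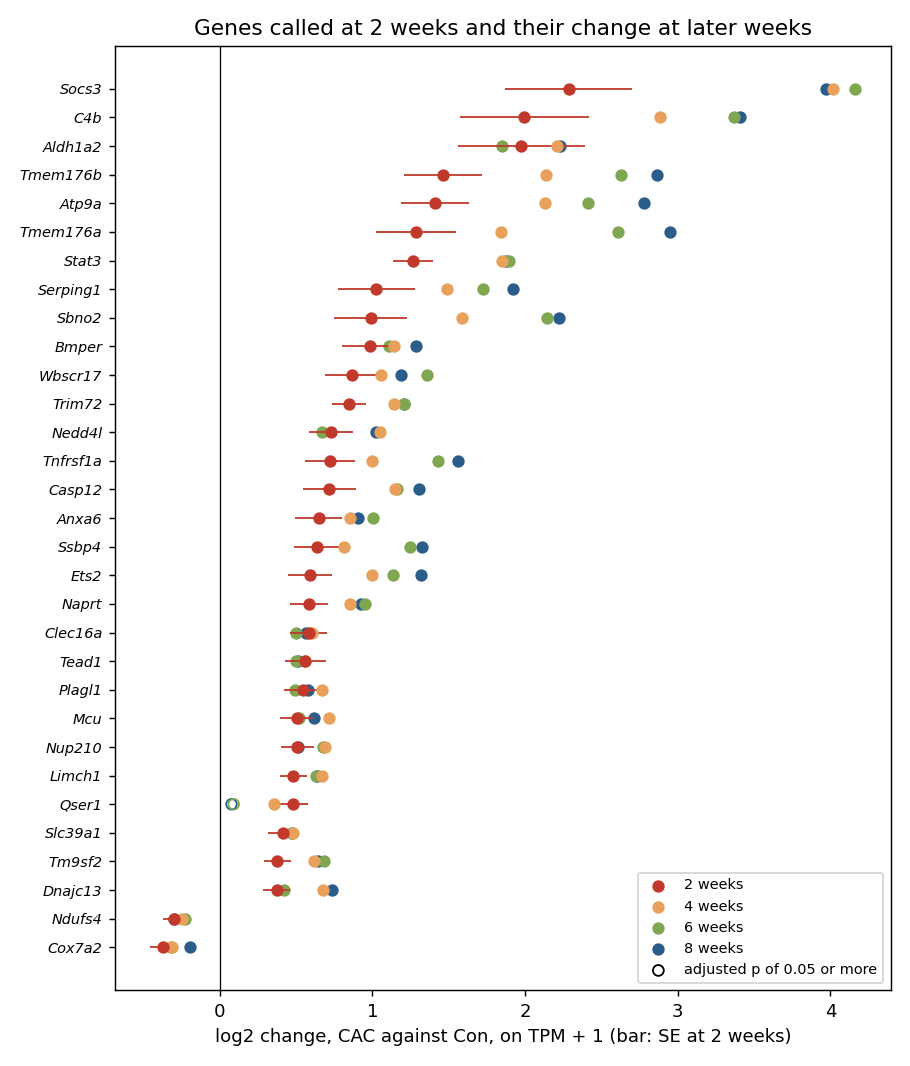
log2 change of CAC against Con on TPM + 1 at 2, 4, 6 and 8 weeks for 31 genes called at 2 weeks, in order of the 2-week change, with bars for the SE at 2 weeks and open points where the adjusted p was 0.05 or more. Only Qser1 has open points, at 6 and 8 weeks, and Cox7a2 and Ndufs4 lie below 0 at all 4 weeks.

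The 5 NCAC libraries of the same week came from mice that also received melanoma cells, of the kind labelled non-cachectic. Between CAC and NCAC 145 genes (1.17%) were called, 143 higher (1.16%) and 2 lower in CAC, and 59 after rescaling. Leaving out CAC replicates 1, 2, 3 and 4 in turn gave 257, 417, 26 and 14, and leaving out NCAC replicates 1, 2, 4 and 5 gave 47, 69, 81 and 41. It shares the 5 CAC libraries with the comparison above, so values are set side by side only. Stat3 differed by 1.27 from Con and 1.34 from NCAC, Socs3 by 2.29 and 2.28, Trim72 by 0.85 and 1.04, and C4b by 2.00 and 1.89, all called in both. Aldh1a2 differed by 1.98 and 1.49 (adjusted p against NCAC = 0.0559), Casp12 by 0.72 and 0.44 (0.158), Cox7a2 by -0.37 and -0.23 (0.141) and Ndufs4 by -0.30 and -0.16 (0.216). Some genes short of the threshold against Con were called against NCAC: Junb, an immediate early transcription factor, by 1.61 (adjusted p = 0.0118), Il1r1, the interleukin-1 receptor, by 0.91 (0.00382) and Steap4 by 0.92 (0.0136). Junb was at 9.67, 13.3, 36.7, 79.1 and 18.6 TPM in CAC, at 8.92 to 10.3 TPM in Con and at 4.91 to 10.4 TPM in NCAC. Between NCAC and Con 0 genes were called by limma, with 81 higher and 390 lower at an unadjusted p under 0.05 (0.655% and 3.15%). In that comparison Stat3 differed by -0.08 and Socs3 by 0.00, with values for Bmper of 0.28 and for Aldh1a2 of 0.49, none of them called.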

How the data were processed

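Messenger RNA of gastrocnemius was sequenced from TruSeq stranded libraries on an Illumina NovaSeq, per the labels' protocols. The authors deposited 1 table of TPM (transcripts scaled for gene length to a fixed sum per library), with 47643 gene symbols and 62 libraries. Genome build mm10 is named per the submitters' processing notes, and neither its aligner nor its counter is given in the sources used here. Groups came from the sample descriptions. A treatment tag that names cachectic cells for every library was not used. From TPM and exon lengths (GENCODE M21, 45134 symbols), depth in the 10 libraries was estimated at 40.3 to 47.6 M reads (M, mega), so 1 TPM per kilobase of transcript stood for 16.8 to 20.6 reads. Of recovered values of 1 to 20 reads, 78.0% to 79.2% lay within 0.02 of a whole number. Nothing in the labels says which mice shared a cage or day, so p-values measure the spread between the deposited replicates.

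Genes with at least 1 TPM in at least 5 of the 62 libraries were kept, and log2(TPM + 1) was fitted with limma 3.58.1 in R 4.3.3, with 1 mean for each of 12 groups, a variance trend and two-sided tests. Fold changes on this scale understate those of low genes. The genes described are those called, 18 genes of cachexia and the members of 51 gene lists that rank in the first 3 of their list by p. A few genes that meet this rule are not reported here. The members and lists were chosen with earlier results of these data known. Coordinates are from GENCODE M21 (GRCm38), and promoter windows are from RefSeq. Alternatives tried were to add 0.1 in place of 1, to apply no filter, filters at 5 TPM or on the 10 libraries, median-ratio scaling, removal of mitochondrial genome transcripts, array weights, fitting only the 2 groups, a replicate block and each library left out in turn. The script was tested on simulated data.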

Additional observations from a re-analysis of the deposited data

Results flagged for a closer look

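A library stood apart from the other 4 of its group in 18 of 184 groups (92 genes in CAC and in Con), by a gap test. Chance alone meets the test in about 1 of 20 groups of normally distributed values. It was applied to TPM without a log, and several flagged genes share a library, so 18 of 184 cannot be set against that rate. In 9 of the 18 the library was CAC replicate 4, as the highest. It was at 237.8 TPM for Ccl8 and 24.7 TPM for Ccl9, both chemokine genes, and at 6.77 TPM for C5ar1, a complement receptor gene. For the macrophage markers C1qa, C1qc and Lyve1 it was at 167, 73.3 and 20.9 TPM, and for the platelet chemokine gene Pf4 at 36.5 TPM. For Ly6a and Pdgfra, markers of connective tissue progenitors, it was at 253.8 and 11.5 TPM. CAC replicate 1 was the highest CAC library for the cardiac actin gene Actc1, at 641 TPM.

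Among Con libraries, replicate 1 was the highest for haptoglobin Hp (21.6 TPM) and the immunoglobulin gene Igkc (30.5 TPM). Replicate 2 was the highest for Il1r1 (2.03 TPM) and replicate 3 the lowest for Tmem176a (2.20 TPM). Replicate 4 was the lowest for Nedd4l (3.53 TPM) and the highest for the myostatin gene Mstn (31.0 TPM). Replicate 5 was the highest for Il6ra (2.58 TPM) and Foxo1 (9.30 TPM).

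The change of CAC against Con differed between 8 and 2 weeks for 10 of 18 genes of cachexia, by limma's test of the difference over all genes. It was higher for 9 and lower for 1 of them, and over all genes tested it was called higher for 27.2% and lower for 1.27%. The 8-week change exceeded the 2-week change by 4.63 for Mt2, 4.40 for Mt1, 2.87 for Fkbp5, 2.03 for Il6ra and 1.68 for Socs3 on the log2 scale. It exceeded it by 1.62 for Foxo1, 1.24 for Osmr, 0.99 for Chrna1 and 0.61 for Stat3. For Actc1 the difference was -2.65.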

How the results depend on the processing

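Of the 35 calls between CAC and Con, 2 were made under every alternative (Stat3 and Trim72), and all 35 kept their direction wherever they were tested. The number that rose (33) was 300 with array weights and 2 in the fit of the 2 groups alone, and the number that fell (2) was 4 with no filter, 6 with median-ratio scaling, 90 with array weights and 0 in the fit of the 2 groups alone. With 1 library left out the numbers ran from 7 to 105 and from 0 to 11. The 145 genes between CAC and NCAC became 59 with median-ratio scaling, 57 without the mitochondrial genome, 888 with array weights and 94 in the fit of the 2 groups alone, and ran from 14 to 417 with 1 library left out. The 0 genes between NCAC and Con became 1 with no filter, 17 with array weights and 1 in the fit of the 2 groups alone. The cause of these shifts was not tested. The counts called again at 4, 6 and 8 weeks stayed within 1.5 times under each alternative. The uncalled change of Mstn reversed from 0.0875 to -0.0115 with median-ratio scaling. With the replicate block 45 genes rose and 2 fell, and 4 of the 35 calls were lost. Same-numbered CAC and Con libraries had correlations of -0.10 to -0.26, and no CAC library correlated best with its own number. So few pairs cannot exclude that the numbers pair the mice, and the main fit treated the libraries as unpaired. Depth limits the precision of low genes such as Plagl1, near 1 TPM.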
